A study of Medicago sativa with 86 samples.

Results

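In alfalfa (*Medicago sativa*) leaves, 80 genes were chosen whose transcripts were raised more at 600 over 420 ppm CO2 in plants with ineffective nitrogen fixation than they changed, in either direction, in plants with effective fixation. They are 80 of 12707 genes that averaged at least 5 CPM, the counts of a gene scaled to a common library total, over the libraries, out of 49095 gene identifiers. Each level was put on the scale log2(CPM + 1), and D, the CO2 difference of a line, is the mean level at 600 ppm minus that at 420 ppm, with the 3 nitrate levels weighted equally. A line is a cultivar in one fixation class. The score of a gene is the smaller D of the ineffective Saranac and Agate lines minus the larger absolute D of the effective Saranac and Agate lines, and the 80 highest scores are the members. All CO2 differences of the members therefore chose them, and they are given below as a description with no test. What is tested is the effect of nitrate and of cultivar on level, the interaction of cultivar with fixation, and the effect of nitrate on the CO2 response. D averages over nitrate and is taken within each cultivar. Ineffective minus effective plants over both CO2 levels was also tested, and nothing is read from it.

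Leaf messenger RNA was sequenced in 85 libraries that fall into 24 groups, 13 with 4 libraries and 11 with 3. The groups cross ineffective and effective nitrogen fixation, the cultivars Saranac and Agate, a weekly feed of 6, 10 or 16 mM KNO3 in nutrient solution, and chambers held at 600 or 420 ppm CO2. Every plant, effective or ineffective, was inoculated with rhizobium and grown in pots of clay and sand under short days. What makes the ineffective class ineffective, a trait of the host, of the rhizobium or of both, is not in the labels. They also leave unsaid how many plants went into a library, so the p-values reflect only the scatter among these libraries. A chamber had a single CO2 level, per the labels' protocols, and an effect of CO2 therefore cannot be told apart from one of the chamber.

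Legumes such as alfalfa house rhizobia in root nodules, where the bacteria turn atmospheric nitrogen into ammonia in exchange for sugars from the leaves. In an ineffective symbiosis nodules may form but little or no nitrogen is fixed, so the plant relies on nitrate from the soil. Elevated CO2 raises the supply of carbon to leaves, and when nitrogen does not keep pace the leaf's balance of carbon to nitrogen shifts, with known effects on sugar storage, nitrogen assimilation and photosynthetic genes. The comparison addresses how leaves of plants with and without nitrogen fixation differ in their response to CO2.

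The identifiers carry no gene names. None of the 49095 matched the reference table of alfalfa genes, which belongs to the assembly Bolivia_mono, so no role is given for any member, and neither leaf markers nor markers of other tissues were checked. Library totals ran from 13543807 to 25910031 counts. Mean levels of the members over all libraries ranged from 5.38 to 528 CPM. Their median was 24 CPM, beside 22.6 CPM for the 12707 eligible genes. These means include ineffective plants at 600 ppm, where the rule favoured high levels. They therefore cannot show whether the members were as abundant as other genes elsewhere. On the log2 scale of D, the median over members of the mean level was 5.19 in ineffective plants at 600 ppm. It was 3.15 in ineffective plants at 420 ppm. In effective plants it was 3.44 at 600 ppm and 3.11 at 420 ppm.

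In ineffective plants the members stood about 4-fold higher at 600 ppm, and in effective plants their CO2 difference was close to that of the median gene. The median D over the 80 members was 2.17 in ineffective Saranac and 1.93 in ineffective Agate, which is 4.51-fold and 3.81-fold on the CPM + 1 scale. Over the 12707 eligible genes the median D was 0.32 and 0.31 in the same lines. In effective plants the members had a median D of 0.28 in Saranac and 0.36 in Agate, beside 0.21 and 0.25 over the eligible genes. Single members ranged from 1.02 to 4.46 in ineffective Saranac, from 1.03 to 4.10 in ineffective Agate, from -0.64 to 2.77 in effective Saranac and from -0.57 to 2.30 in effective Agate. D was above 2 for 48 members in ineffective Saranac and for 32 in ineffective Agate.

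The shift of the median eligible gene above 0 comes with scaling to library totals. With the trimmed mean (TMM) scaling of edgeR the median D over eligible genes was 0.024, 0.0054, -0.0087 and 0.0070 in ineffective Saranac, ineffective Agate, effective Saranac and effective Agate. The members' medians were then 1.91, 1.65, 0.081 and 0.14. So relative to the typical gene the members differed between CO2 levels by roughly the same amount under both scalings.

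**Figure D1:**
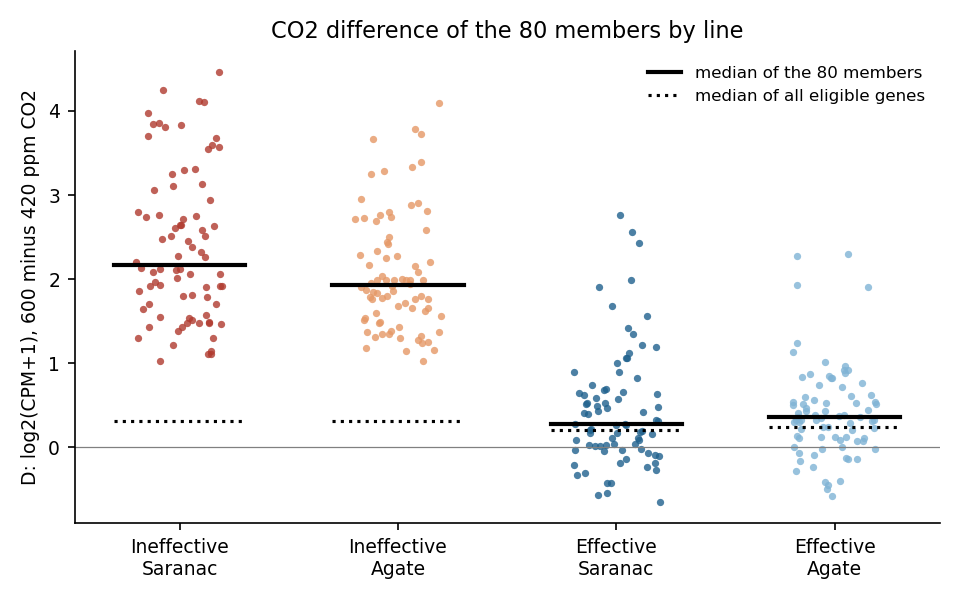
CO2 difference D on the log2(CPM + 1) scale (600 minus 420 ppm) for each of the 80 members in the 4 lines. Points are members, black bars their medians (2.17, 1.93, 0.28 and 0.36), and dotted bars the medians over 12707 eligible genes. The points of the ineffective lines all lie above 1, while those of the effective lines spread around 0 with some above 2.

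The response of effective plants was small for most members and not for all, so a rise confined to ineffective plants describes only part of the list. The larger absolute D of the effective lines was under 0.5 for 35 members. It was 1 or more for 16 members, and for all 16 it was a higher level at 600 ppm. D was positive in both effective lines for 54 members, negative in both for 9 and of opposite sign for 17. Seen from the other side, D exceeded 1 in both ineffective lines for 966 eligible genes, and 492 of these also exceeded 1 in both effective lines. The members were 80 of the 966, or 8.28%. Above a D of 2 the same count was 221 genes, of which 32, or 14.5%, were members and 108 also exceeded 2 in both effective lines.

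Scores of the members ran from 2.49 at the top to 0.933 at rank 80. The genes just outside scored 0.927 and 0.918, with D of 2.12 and 3.15 in ineffective Saranac, so the list ends within a continuous range and not at a gap.

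Among the 4 combinations of fixation and CO2, the ineffective plants at 600 ppm stood apart from the other three. The median over members of the mean level was 5.19 in ineffective plants at 600 ppm, 3.15 in ineffective plants at 420 ppm, 3.44 in effective plants at 600 ppm and 3.11 in effective plants at 420 ppm, on the log2(CPM + 1) scale. All 80 members had their highest mean in ineffective plants at 600 ppm. Their lowest mean was in ineffective plants at 420 ppm for 28 members. Ineffective minus effective plants gave a median of 1.72 over members at 600 ppm, against 0.11 over eligible genes, and of 0.084 at 420 ppm, against 0.035. By this median the members were thus at nearly the same level in both fixation classes at 420 ppm, which need not hold for each member.

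Per library, the median level over the 80 members was 5.20 to 6.4 in the 11 libraries of ineffective Saranac at 600 ppm, with a mean of 5.75 ± 0.39 (SD), and 2.53 to 4.59 in the 10 at 420 ppm, with a mean of 3.22 ± 0.61. It was 3.83 to 6.26 in the 11 libraries of ineffective Agate at 600 ppm, with a mean of 5.39 ± 0.83, and 2.64 to 3.99 in the 10 at 420 ppm, with a mean of 3.18 ± 0.45. The ranges of the CO2 levels did not overlap in ineffective Saranac and overlapped at 1 end in ineffective Agate, where the lowest library at 600 ppm had 3.83 and the highest at 420 ppm had 3.99. In effective plants they overlapped as well. Effective Saranac averaged 3.57 ± 0.24 in 10 libraries at 600 ppm and 3.12 ± 0.20 in 11 libraries at 420 ppm (± SD). Effective Agate averaged 3.61 ± 0.20 in 11 libraries at 600 ppm and 3.28 ± 0.39 in 11 libraries at 420 ppm (± SD).

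**Figure D2:**
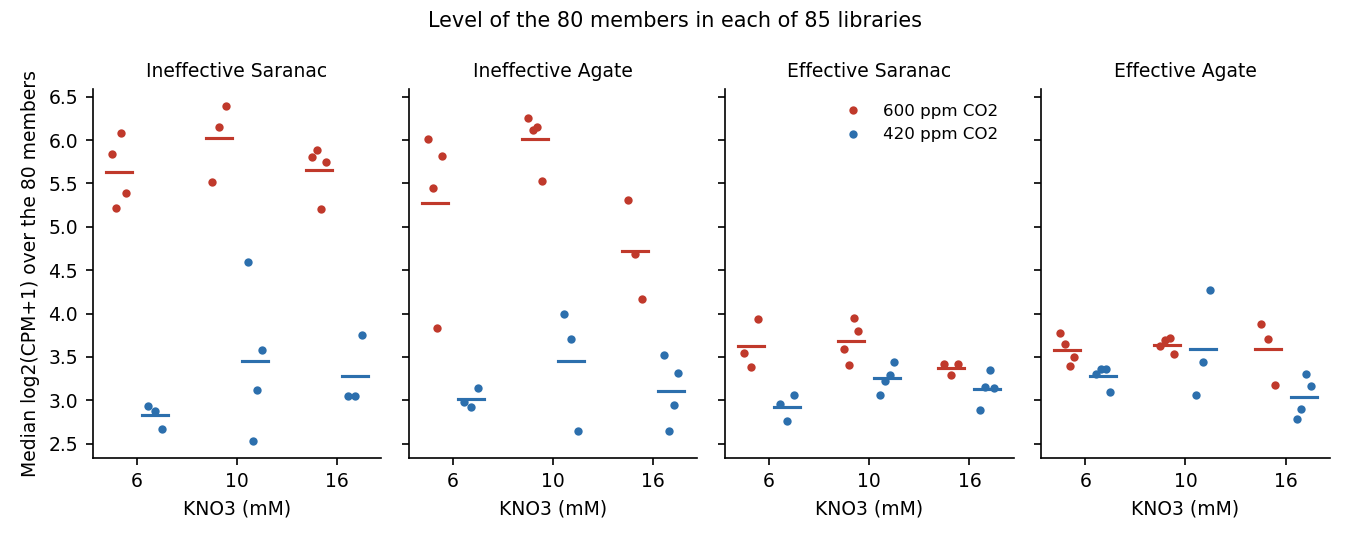
Median level of the 80 members, log2(CPM + 1), in each of the 85 libraries by line, nitrate (x axis, mM KNO3) and CO2, with 600 ppm in red and 420 ppm in blue. Points are libraries and bars are group means. The ineffective lines at 600 ppm lie between 3.83 and 6.4, and libraries of the effective lines between 2.76 and 4.27.

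Of the single libraries that stood apart from their group or lay towards the other CO2 level, 5 are described first. In ineffective Agate with 6 mM at 600 ppm, replicate 3 had a median member level of 3.83, while the other 3 libraries of that group had 5.45 to 6.01. In ineffective Saranac with 10 mM at 420 ppm, replicate 1 had 4.59, while the other 3 had 2.53 to 3.58. In effective Agate with 10 mM at 420 ppm, replicate 3 had 4.27, while the other 2 had 3.06 and 3.44. The remaining 2 were ineffective Agate libraries. Replicate 1 with 10 mM at 420 ppm had 3.99, while the other 2 had 2.64 and 3.71, and replicate 4 with 16 mM at 600 ppm had 4.17, while the other 2 had 4.69 and 5.30. On a scale where -1 is the 420 ppm mean and 1 the 600 ppm mean of the line, each without the library itself, the Agate library with 6 mM stood at -0.48 by the members and 0.031 by the other eligible genes. The Saranac library stood at 0.27 by the members and 0.35 by the other genes. The Agate library with 10 mM stood at 0.23 by the members and 0.74 by the other genes, and that with 16 mM at -0.12 by the members and 0.67 by the other genes. Leaving out 1 at a time gave a median D in ineffective Agate of 2.08, 1.99 and 2.01 for the 6, 10 and 16 mM libraries, and one in ineffective Saranac of 2.31. In effective Agate it was 0.45 without its library. These were not the only ones. In ineffective Saranac with 16 mM at 420 ppm, replicate 4 had 3.75, while replicates 1 and 2 had 3.05 each. The median D in ineffective Saranac was 2.32 without that replicate 4. In effective lines, where the CO2 difference was small, some 600 ppm libraries lay on the 420 ppm side by the members. The lowest, replicate 3 of effective Agate with 16 mM, stood at -0.99.

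Complete separation of libraries was uncommon for single members, more so in Agate. In ineffective Saranac, 16 of the 80 members had every library at 600 ppm above every library at 420 ppm, against 2.34% of all eligible genes. In ineffective Agate this held for 2 members, against 0.386%. In effective Saranac it held for 0 members, against 0.755%, and in effective Agate for 0 members, against 0.527%. These counts use the contrast that chose the members, and nothing is read from them.

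The spread between libraries of a group was wider for members than for other genes. The median within-group SD of the members was 0.79 in ineffective Saranac at 600 ppm and 0.94 in ineffective Agate at 600 ppm, beside 0.42 and 0.40 over eligible genes. It was 0.80 and 0.86 in effective Saranac and effective Agate at 600 ppm, beside 0.40 and 0.41. At 420 ppm it lay between 0.67 in effective Saranac and 1.04 in ineffective Agate.

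MsG0180004899.01 had the highest score. In ineffective plants it ranged from 45.7 to 352 CPM with a median of 154 CPM at 600 ppm (n = 22) and from 0.0534 to 103 CPM with a median of 16.1 CPM at 420 ppm (n = 20). In effective plants it ranged from 0.821 to 53.9 CPM with a median of 14 CPM at 600 ppm (n = 21) and from 0.754 to 50.1 CPM with a median of 9.64 CPM at 420 ppm (n = 22). Its libraries at 420 ppm were widely spread in both fixation classes, and the ineffective libraries at 600 ppm overlapped only their upper end. D was 3.83 in ineffective Saranac and 3.34 in ineffective Agate, 0.47 in effective Saranac and 0.84 in effective Agate. Its row neighbour in the count table was also a member, with a score of 2.31.

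MsG0380011924.01, with the second score, was nearly silent outside ineffective plants at 600 ppm. It had 0.391 to 89.2 CPM with a median of 21.6 CPM in ineffective plants at 600 ppm (n = 22), and 0 to 5.35 CPM with a median of 0.968 CPM in ineffective plants at 420 ppm (n = 20). In effective plants it reached at most 3.78 CPM at 600 ppm (n = 21), with a median of 0.997 CPM, and at most 2.88 CPM at 420 ppm (n = 22), with a median of 0.615 CPM. D was 3.57 in ineffective Saranac, 2.69 in ineffective Agate, 0.32 in effective Saranac and 0.24 in effective Agate. The low ineffective values at 600 ppm were all from Agate. At 16 mM its 3 Agate libraries had 12.4, 1.10 and 0.391 CPM, while the 4 Saranac libraries had 9.63 to 40.9 CPM.

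**Figure D3:**
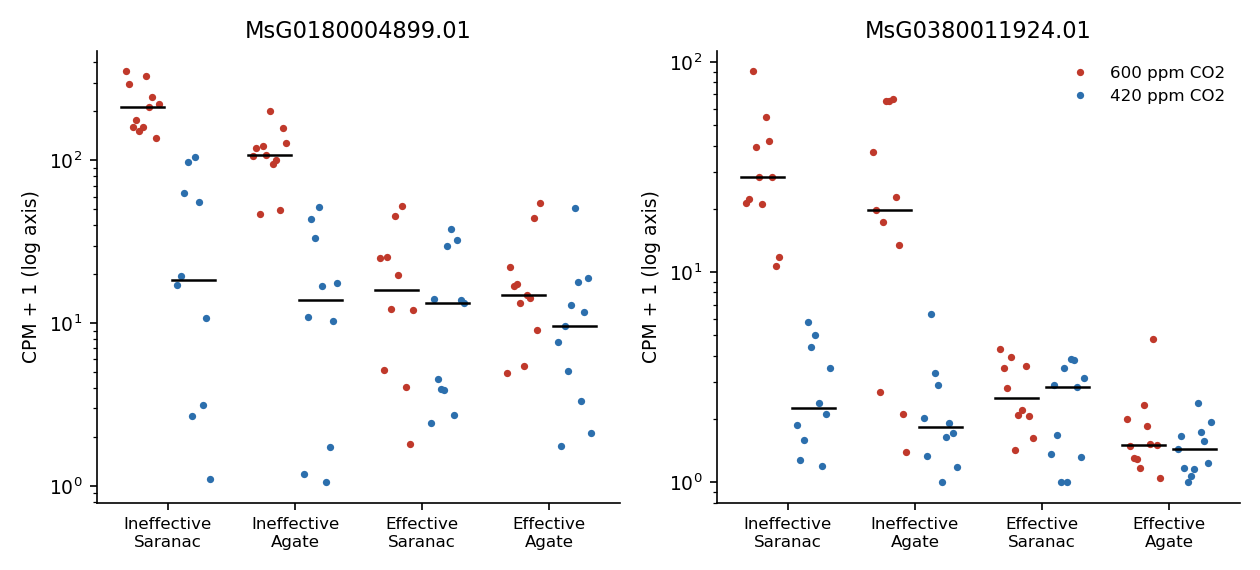
CPM + 1 on a log axis for the members of highest score, MsG0180004899.01 and MsG0380011924.01, in every library by line, with 600 ppm in red and 420 ppm in blue. Points are libraries over all nitrate levels and bars are medians. MsG0380011924.01 stays at or below 3.78 CPM in all effective libraries and reaches 89.2 CPM in ineffective plants at 600 ppm.

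The CO2 difference of the members at each nitrate level is a part of the D that chose them, so it is given as a description. For 6, 10 and 16 mM in turn, ineffective Saranac had a median D of 2.22, 2.16 and 2.13. Ineffective Agate had 2.01, 2.29 and 1.49. In effective Saranac it was 0.27, 0.38 and 0.26, and in effective Agate 0.40, -0.054 and 0.56. Over eligible genes the medians were 0.29, 0.31 and 0.35 in ineffective Saranac and 0.24, 0.44 and 0.24 in ineffective Agate. In effective Saranac they were 0.098, 0.25 and 0.25, and in effective Agate 0.12, 0.14 and 0.46. D was positive in all 6 combinations of ineffective line and nitrate for 79 members, and above 1 in all 6 for 47 members. The lower value of ineffective Agate at 16 mM goes with its 600 ppm libraries, whose median member levels were 5.30, 4.69 and 4.17.

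Nitrate itself, which the rule averaged over, was tested on all 24386 genes that passed a filter on low counts, with the quasi-likelihood test of edgeR and Benjamini-Hochberg adjustment. All 80 members passed that filter. At 6 against 16 mM, over both CO2 levels, 0 members were called in ineffective plants, against 0.0779% of all genes, and 12 (15%) had an unadjusted p under 0.05, against 11.9% of all genes. In effective plants 0 members were called, against 0.00410% of all genes, and 8 (10%) had an unadjusted p under 0.05, against 8.28% of all genes. The Wald test of DESeq2 called 5 members in ineffective plants, against 1.58% of all genes, and 3 in effective plants, against 0.993% of all genes. Median log2 fold changes of the members were 0.11 in ineffective and -0.033 in effective plants, beside -0.026 and -0.0064 over all genes. Neither sign held throughout, since the median was -0.013 in ineffective plants without replicate 3 and 0.046 in effective plants without replicate 1.

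For a small set of members the test called a difference in CO2 response between nitrate levels, and the calls depended on single libraries. The responses compared are the parts that D averages, so the share of members called is a description and nothing is read from it. The CO2 response at 6 mM minus that at 10 mM in ineffective plants was called for 8 members, 7 higher and 1 lower. That is 8 of 80 members against 2.64% of all genes, of which 2.12% were called higher and 0.525% lower. The 7 log2 differences ran from 3.5 to 7.11, and the median over the 80 members was 0.32, beside 0.025 over all genes. That median had no stable direction: it was -0.27 without replicate 1. The CO2 response at 6 mM minus that at 16 mM was called for 2 members, both higher, against 0.320% of all genes called and 0.291% called higher, and the median was 0.41, beside 0.055. Without replicate 1 of ineffective Agate with 10 mM at 420 ppm, 0 members were called at 6 against 10 mM, against 0.00398% of all genes, and the median was 0.042. Leaving out replicate 1, 2 or 4 in turn also left 0 members called, against 0%, 0% and 0.465% of all genes. With the replicate number as a block 4 were called at 6 against 10 mM, against 1.44% of all genes, and 0 at 6 against 16 mM, against 0%. At 6 against 16 mM 0 were also called without replicate 1, 3 or 4, without replicate 4 of ineffective Agate with 16 mM at 600 ppm, without a filter on low counts, or without 1 ineffective Saranac library of 6 mM and 420 ppm whose number belongs to another nitrate level.

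MsG0780039356.01 and MsG0380015136.01 had the largest differences between nitrate levels. With 6 mM, MsG0780039356.01 had 665, 313, 802 and 270.1 CPM in ineffective Saranac at 600 ppm, against 0.396, 0.108 and 0.829 CPM at 420 ppm. In ineffective Agate at 6 mM it had 188, 199.7, 66.4 and 257 CPM at 600 ppm, against 6.60, 1.21 and 0.408 CPM at 420 ppm. The CO2 levels were far apart in both lines at 6 mM. At 10 mM they overlapped: ineffective Saranac had 74.8, 178 and 398 CPM at 600 ppm, against 180.5, 3.27, 12.8 and 26.3 CPM at 420 ppm. Ineffective Agate at 10 mM had 266, 152, 444 and 261 CPM at 600 ppm, against 671, 32.8 and 4.16 CPM at 420 ppm, where replicate 1 stood above every library at 600 ppm. The log2 CO2 response at 6 mM minus that at 10 mM was 7.11 ± 1.54 (SE, adjusted p = 0.0077 by the quasi-likelihood test of edgeR), and that at 6 mM minus 16 mM was 6.33 ± 1.51 (SE, adjusted p = 0.047). For MsG0380015136.01 the same values were 7.11 ± 1.57 (SE, adjusted p = 0.0081) and 7.0 ± 1.57 (SE, adjusted p = 0.034). Over the alternatives the adjusted p of the 10 mM comparison ran from 2.2e-06 to 0.31 for MsG0780039356.01 and from 7.1e-06 to 0.34 for MsG0380015136.01, and without that replicate 1 of Agate it was 0.11 for both. For the 16 mM comparison it ran from 5.3e-05 to 0.59 and from 1.4e-05 to 0.59, and was above 0.05 in 7 of 14 alternatives for both genes. The fitted differences depend on the prior count, since MsG0380015136.01 had no counts in 2 of 3 ineffective Saranac libraries at 6 mM and 420 ppm.

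Both of these genes also stood higher at 600 ppm in effective plants at 6 mM. Averaged over nitrate, D in effective Saranac and Agate was 2.43 and 1.91 for MsG0780039356.01, and 1.91 and 1.24 for MsG0380015136.01. MsG0780039356.01 had 104, 116 and 93.5 CPM in effective Saranac at 6 mM and 600 ppm, against 4.62, 0.286 and 0.260 CPM at 420 ppm. In effective Agate at 6 mM it had 87.9, 31.9, 153 and 180.3 CPM at 600 ppm, against 0.514, 1.41, 1.23 and 0.150 CPM at 420 ppm. No library at 600 ppm overlapped one at 420 ppm. D at 6 mM was 8.35 and 5.80 in ineffective Saranac and Agate and 5.65 and 5.76 in effective Saranac and Agate, while at 10 mM it was 2.92 and 2.42 in the ineffective lines and -0.68 and 0.21 in the effective lines.

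The single member called lower was MsG0780039941.01. At 6 mM it had 30.2 to 43.4 CPM in ineffective Saranac at 600 ppm (n = 4), against 14.9 to 21.3 CPM at 420 ppm (n = 3), and 18.7 to 39.8 CPM in ineffective Agate at 600 ppm (n = 4), against 10.6 to 20.3 CPM at 420 ppm (n = 3). At 10 mM it had 68.3 to 79.98 CPM in ineffective Saranac at 600 ppm (n = 3), against 14 to 17.9 CPM at 420 ppm (n = 4), and 49.1 to 113 CPM in ineffective Agate at 600 ppm (n = 4), against 5.03 to 23.6 CPM at 420 ppm (n = 3). Its CO2 response was smaller at 6 than at 10 mM by a log2 difference of -1.54 ± 0.45 (SE, adjusted p = 0.047 by the quasi-likelihood test of edgeR). The adjusted p ran from 0.020 to 0.38 over 14 alternatives and was above 0.05 in 9 of them.

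Members varied together within groups, in values that the group means and so the rule do not enter. After each group mean was subtracted, the Pearson correlation across 85 libraries had a median of 0.15 over the 3160 pairs of members, and 6.84% of pairs were above 0.5. Over all pairs of eligible genes the median was 0.058, and 1.88% were above 0.5. The libraries and their scaling are shared by all pairs, and members also spread more within groups, so these values are a description. A first component held 23.1% of the members' residual variance, with 72 of 80 members on the same side, beside 14.9% over eligible genes.

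**Figure D4:**
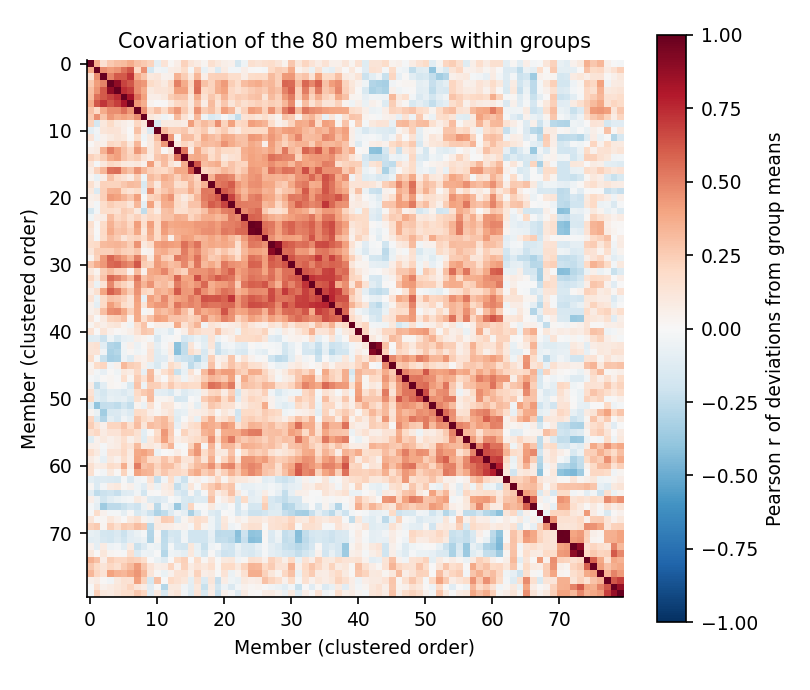
Pearson correlation of log2(CPM + 1), after subtraction of each group mean, for all pairs of the 80 members across 85 libraries, in clustered order on both axes. Red is positive and blue negative. A broad red block of members is visible beside several small ones, and the median over pairs is 0.15.

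Clustering these correlations gave 6 sets of at least 4 members, 50 members in all, which were formed after their values were seen and get no test. The largest set held 22 members, MsG0380011924.01 among them, with a median correlation of 0.50. Its median D was 2.74 in ineffective Saranac, 2.02 in ineffective Agate, 0.40 in effective Saranac and 0.34 in effective Agate. In ineffective Agate the median D of this set was 1.97 with 6 mM, 3.08 with 10 mM and 1.10 with 16 mM, a swing that the full list showed more weakly. A set of 8 members, MsG0780039941.01 among them, had effective D nearest to 0, with medians of 0.054 in Saranac and 0.093 in Agate, and D of 1.78 in ineffective Saranac and 1.34 in ineffective Agate. A set of 4 members with MsG0180004899.01 had median D of 4.34 in ineffective Saranac and 3.13 in ineffective Agate at 16 mM.

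A set of 6 members, with a median correlation of 0.62, departed from the description of the list. It held MsG0780039356.01 and MsG0380015136.01, and all 6 were among the 7 members called higher for the CO2 response at 6 against 10 mM, a call that was lost without 1 Agate library. At 6 mM its median D was 6.20 in ineffective Saranac, 5.12 in ineffective Agate, 4.27 in effective Saranac and 4.06 in effective Agate, and each of its 6 members exceeded 1 in every line. At 10 mM the medians were 2.86, 2.36, 0.52 and 0.43. At 16 mM they were 2.20, 2.95, 2.14 and 0.48, and all 6 members exceeded 1 in effective Saranac. These 6 genes were thus higher at 600 ppm in both fixation classes at 6 mM, and in effective Saranac at 16 mM as well. Averaged over the 3 nitrate levels, the median D of the set was 3.76 and 3.51 in ineffective Saranac and Agate. In effective Saranac and Agate it was 2.21 and 1.92.

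**Figure D5:**
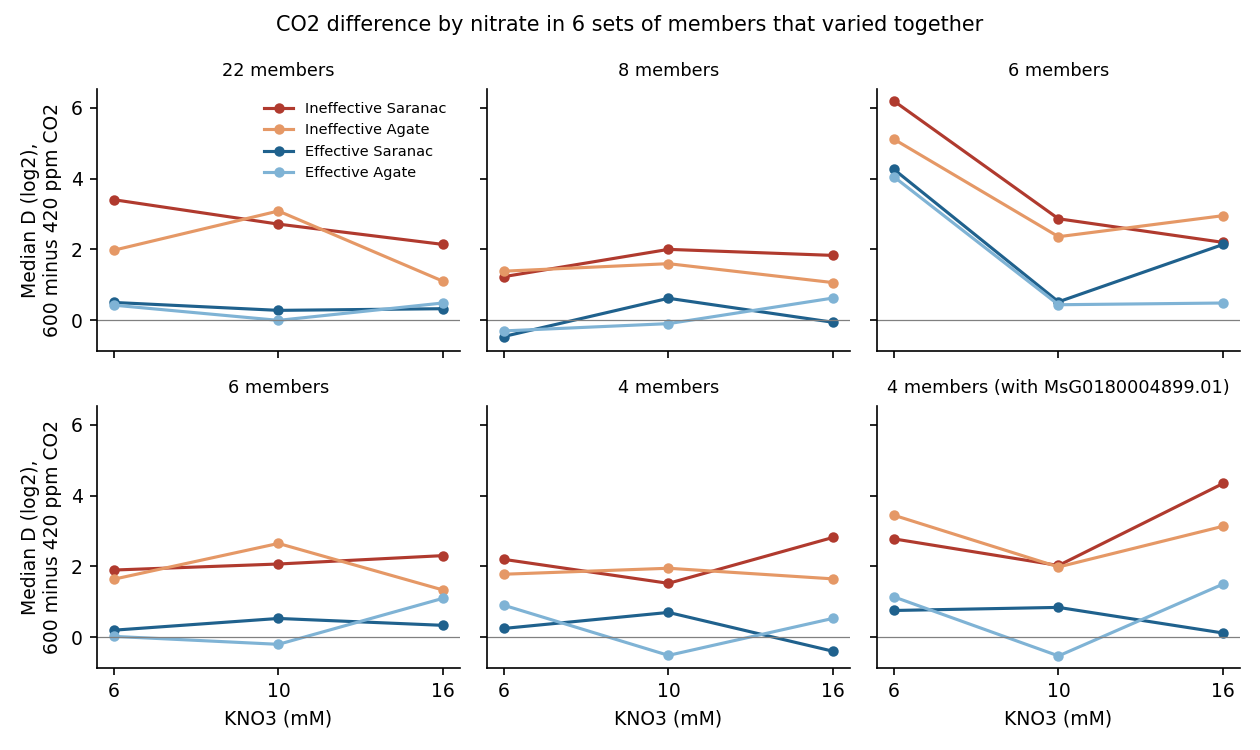
Median CO2 difference D (log2 scale, 600 minus 420 ppm) at 6, 10 and 16 mM KNO3 in the 4 lines, for the 6 sets of members that varied together within groups. Points are medians over the members of a set. In the first set of 6 members all 4 lines lie above 4 at 6 mM. In every set, this one included, the ineffective lines lie above the effective lines at each nitrate level.

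Most members in neighbouring rows of the table were tightly linked. There were 5 pairs of members in consecutive rows, 10 members in all. The residual correlation was 0.87 to 0.99 for 4 of them and 0.17 for MsG0280009635.01 and MsG0280009636.01, while the median over 5388 such pairs of eligible genes was 0.19. Reads of near-identical copies can be split or shared by the counting, and whether these pairs are copies was not tested, so the pairs may be fewer independent genes than their number.

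Saranac and Agate differed in the level of some members, and how the members compare with other genes depends on the measure. The share of members called was 13.75% in ineffective plants, below that of all genes, and 2.5% in effective plants, about that of all genes. In ineffective plants, over both CO2 levels, Saranac minus Agate was called for 11 of 80 members, 8 higher and 3 lower, against 22.5% of all genes, 10.1% higher and 12.4% lower. The median log2 difference was 0.21 over the members, beside -0.023 over all genes. In effective plants 2 members were called, both lower, against 2.49% of all genes called and 1.19% called lower. The median log2 difference there was -0.19 over the members, beside -0.012 over all genes. An unadjusted p under 0.05, by the quasi-likelihood test of edgeR, was found for 22.5% of members in ineffective plants, against 34.4% of all genes. In effective plants it was found for 21.25%, against 15.3%. Members also spread more within groups, so these shares are a description.

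MsG0780035995.01 had the largest excess in Saranac. It had 1.39 to 78.0 CPM with a median of 15.7 CPM in ineffective Saranac at 600 ppm (n = 11), against 0.0518 to 31.4 CPM with a median of 2.99 CPM in ineffective Agate at 600 ppm (n = 11). At 420 ppm it had 1.72 to 28.6 CPM in ineffective Saranac (n = 10), against 0 to 0.760 CPM in ineffective Agate (n = 10). The cultivars did not overlap at 420 ppm and did at 600 ppm. Saranac minus Agate came to 3.23 ± 0.65 on the log2 scale (SE, adjusted p = 0.00016 by the quasi-likelihood test of edgeR), and the adjusted p was at most 0.0067 over 14 alternatives.

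MsG0180003419.01 was higher in Saranac among ineffective plants. It had 49.96 to 207 CPM with a median of 94.9 CPM in ineffective Saranac at 600 ppm (n = 11), against 0.103 to 87.8 CPM with a median of 22.1 CPM in ineffective Agate at 600 ppm (n = 11). In effective plants at 600 ppm the median was 6.33 CPM in Saranac (n = 10) and 7.39 CPM in Agate (n = 11). Saranac minus Agate was 1.91 ± 0.46 in ineffective plants (SE, adjusted p = 0.0016) and -0.14 ± 0.44 in effective plants (SE, adjusted p = 0.96). The difference between these was 2.05 ± 0.64 (SE, adjusted p = 0.032 by the quasi-likelihood test of edgeR), with an adjusted p of 0.24 without replicate 2, 0.12 without replicate 3, 0.051 without a filter on low counts and 0.084 without replicate 3 of effective Agate with 10 mM at 420 ppm. In ineffective plants the adjusted p was 0.056 without replicate 4. This interaction of cultivar with fixation was called for 2 members, both higher, against 8.64% of all genes called and 3.79% called higher. An unadjusted p under 0.05 was found for 31.25% of members, against 22.4% of all genes. The median interaction was 0.51 over the members, beside -0.0098 over all genes. The other was MsG0480018232.01, the more abundant, with 425 to 1202 CPM in ineffective Saranac at 600 ppm (n = 11), against 129 to 721 CPM in ineffective Agate at 600 ppm (n = 11), and 81.4 to 336 CPM in effective Saranac at 600 ppm (n = 10), against 71.3 to 332 CPM in effective Agate at 600 ppm (n = 11). Its interaction was 0.93 ± 0.26 (SE, adjusted p = 0.016), and the adjusted p was 0.17 without replicate 1 and 0.090 without replicate 3.

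Lower levels in Saranac were seen for a few members. MsG0380015192.01 had a median of 4.82 CPM in ineffective Saranac at 600 ppm, against 25.8 CPM in ineffective Agate at 600 ppm, and 1.06 CPM in ineffective Saranac at 420 ppm, against 7.74 CPM in ineffective Agate at 420 ppm. Its libraries overlapped, with a highest value of 212 CPM in Saranac and 203 CPM in Agate. The log2 fold change was -1.98 ± 0.64 in ineffective plants (SE, adjusted p = 0.019) and -2.26 ± 0.66 in effective plants (SE, adjusted p = 0.046 by the quasi-likelihood test of edgeR). MsG0580024443.01 was the other member called in effective plants, at -2.13 ± 0.62 (SE, adjusted p = 0.047), and neither call in effective plants held without a filter on low counts, without replicate 1 or 2, or without replicate 3 of effective Agate with 10 mM at 420 ppm. In ineffective plants the adjusted p of MsG0380015192.01 was 0.051 without replicate 1, 0.18 without replicate 2, 0.15 without replicate 4 and 0.052 without replicate 4 of ineffective Agate with 16 mM at 600 ppm. MsG0280006515.01, the member of rank 80, had -0.63 ± 0.16 in ineffective plants (SE, adjusted p = 0.0027), with 4.37 to 34.7 CPM in Saranac and 14.8 to 72.9 CPM in Agate at 600 ppm (n = 11 each).

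Averaged over both CO2 levels, ineffective minus effective plants was called for 60 members, all 60 higher, against 22.0% of all genes called and 10.6% called higher. By the median over members, the classes were at nearly the same level at 420 ppm. For the list as a whole, the difference between classes therefore largely repeats the CO2 difference that chose the members, and nothing is read from it. The largest were MsG0780039352.01, with 0 to 309 CPM and a median of 86.7 CPM in ineffective plants at 600 ppm (n = 22), against 0 to 178 CPM and a median of 0.349 CPM in effective plants at 600 ppm (n = 21), and MsG0280009636.01, with a median of 30.3 CPM in ineffective plants at 600 ppm (n = 22), against 0.338 CPM in effective plants at 600 ppm (n = 21). At 420 ppm MsG0780039352.01 had a median of 3.67 CPM in ineffective plants (n = 20), against 0 CPM in effective plants (n = 22). For MsG0280009636.01 the same medians were 0.092 and 0.020 CPM. In turn, the 2 genes had 0 counts in 12 and 11 of 22 effective libraries at 420 ppm, and in 3 and 8 of 20 ineffective libraries.

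To read the CO2 difference in libraries that did not choose the genes, 80 genes were chosen again without the libraries of each replicate number in turn, and D was then taken in the libraries left out. Between 49 and 59 of the 80 chosen were members. In the libraries left out the median D was 2.16, 2.19, 2.10 and 1.84 in ineffective Saranac for numbers 1, 2, 3 and 4, and 1.27, 2.86, 0.94 and 1.80 in ineffective Agate. Over eligible genes the same libraries gave 0.46, 0.40, 0.28 and 0.35 in ineffective Saranac and 0.24, 0.32, 0.26 and 0.30 in ineffective Agate. The excess in ineffective plants was thus present in all 4 readings, and was smallest in Agate for replicate 3, which includes the low library at 6 mM.

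In effective plants 6 of 8 readings were farther from 0 than in the libraries that chose the genes, and 2 were closer. The median D in the libraries left out was 0.59, 0.25, 0.45 and 0.47 in effective Saranac and 0.98, 0.71, 0.27 and 0.098 in effective Agate for numbers 1, 2, 3 and 4. In the libraries that chose the genes it was 0.40, 0.47, 0.17 and 0.25 in effective Saranac and 0.16, 0.30, 0.20 and 0.33 in effective Agate. Over eligible genes the libraries left out gave 0.19, 0.33, 0.28 and 0.14 in effective Saranac and 0.35, -0.092, 0.28 and 0.27 in effective Agate. The effective response of the chosen genes was above that of the typical gene in 5 of 8 readings. Some combinations of nitrate and CO2 lack a replicate number, so each reading uses 1 to 3 nitrate levels.

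The profile of the list reached beyond its members. The mean of the standardized members over the 24 groups correlated with single members at a Pearson r of 0.51 to 0.96, with a median of 0.86. The non-members most like it were MsG0280006649.01 (r = 0.96) and MsG0480018355.01 (r = 0.96), over 24 groups. Their scores ranked 104 and 498, with D of 2.07 and 1.48 in ineffective Saranac and Agate and 0.38 and 0.65 in effective Saranac and Agate for MsG0280006649.01.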

How the data were processed

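Raw read counts per gene were produced by the authors with featureCounts, per the submitters' processing notes, and deposited as 1 table of 49095 identifiers. Not given in the sources used here are the featureCounts version and strand option, the read aligner, the genome build and the gene annotation. A stranded mRNA kit was used, per the labels' protocols. Groups came from the labels. For 1 library of 86 (Agate, 10 mM, 420 ppm) the labels contradict each other on fixation, and it entered no comparison. Another, ineffective Saranac replicate 3 with 6 mM at 420 ppm, is numbered among libraries of another nitrate level and was kept, and an alternative leaves it out.

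CPM were counts over the column total, with a pseudocount of 1 before log2. Tests were run in R 4.3.3 with edgeR 4.0.16, by its quasi-likelihood method on the deposited counts, with 1 coefficient for each of 24 groups, TMM scaling, filterByExpr by group and robust dispersion. Contrasts weighted groups equally, p-values were adjusted by Benjamini-Hochberg over all 24386 genes, and genes under 0.05 were called. An SE is the log2 fold change over the square root of F. The fit was checked on simulated counts. For 1 member, with no counts in some groups, the fit gave no usable error in the cultivar contrast of effective plants and in its interaction, and it was counted as not called. DESeq2 1.42.0, other scalings, pseudocounts and filters, a replicate block and libraries left out were the alternatives.

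The genes named are the members of highest score and, for each contrast, at most 2 called members that were higher and 2 that were lower, by size of change among those with the same sign in each cultivar or class where the contrast spans them. The set of members, the contrasts and the rule were chosen with earlier results of these data known. Lists of genes by function or cell type were not used, since no identifier matched a name. Tables were handled in Python 3.11.15.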

Additional observations from a re-analysis of the deposited data

Results flagged for a closer look

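The CO2 response differed between nitrate levels in ineffective plants, by a test of the difference itself, for 8 members, 3 of which are named by the rule. At 6 against 10 mM these 8 of 80 members stood against 2.64% of all genes. At 6 against 16 mM 2 of 80 stood against 0.320%. The responses compared are the parts that D averages, so the shares are a description and nothing is read from them. For MsG0380015136.01 the log2 response at 6 mM exceeded that at 16 mM by 7.0 and that at 10 mM by 7.11. For MsG0780039356.01 the same differences were 6.33 and 7.11. For MsG0780039941.01 the response at 6 mM minus that at 10 mM was -1.54. Without replicate 1 of ineffective Agate with 10 mM at 420 ppm, no member was called at 6 against 10 mM. The same held when replicate number 1, 2 or 4 was left out. At 6 against 16 mM the call was lost in 7 of 14 alternatives for both MsG0380015136.01 and MsG0780039356.01.

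The difference between Saranac and Agate depended on fixation class, by the interaction term, for 2 members. It was larger in ineffective than in effective plants by 2.05 on the log2 scale for MsG0180003419.01 and by 0.93 for MsG0480018232.01. The share called was 2.5% of the members, below the 8.64% of all genes. At an unadjusted p under 0.05, by the quasi-likelihood test of edgeR, it was 31.25%, above the 22.4% of all genes. The median interaction was 0.51 over the members, beside -0.0098 over all genes. It was above 0 for 61 members, against 49.1% of all genes. The call was lost in 4 of 14 alternatives for MsG0180003419.01 and in 2 of 14 for MsG0480018232.01. In none of the 13 groups of 4 libraries did the median member level of a single library stand far enough from the other 3 to be marked as an outlier, where chance would mark about 1 in 20 groups.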

How the results depend on the processing

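Which genes make the list depends on the libraries used. Chosen again, the list shared 49 to 73 of its 80 members without 1 replicate number or 1 library, and 64 to 77 under other scalings, a smaller pseudocount, other minimum levels or without the library numbered out of order. The median D kept its sign throughout, at 1.91 to 2.47 in ineffective Saranac, 1.65 to 2.19 in ineffective Agate, 0.081 to 0.39 in effective Saranac and 0.14 to 0.48 in effective Agate. No median D and no named gene reversed. The members' median log2 fold change did on leaving out replicate numbers or libraries: it ran from -0.27 to 0.59 for the CO2 response at 6 against 10 mM, from -0.013 to 0.19 for 6 against 16 mM in ineffective plants, and from -0.14 to 0.046 in effective plants, where it was 0.013 with the replicate number as a block. Counts of called members moved more. The shares of all genes called also moved and are given beside them. For the nitrate contrast, edgeR called 0 members. The Wald test of DESeq2 called 5 in ineffective and 3 in effective plants, beside 1.58% and 0.993% of all genes. For the CO2 response at 6 against 16 mM it called 8 members, beside 3.11% of all genes, where edgeR called 2, beside 0.320%. By edgeR 0 were called without a filter, beside 0.00775%, and 0 without the library numbered out of order, beside 0%. Without 1 replicate number or library 0 to 4 were called, beside 0% to 0.815%. At 6 against 10 mM, 0 to 8 were called when a replicate number or library was left out, beside 0% to 3.08% of all genes. Without ineffective Saranac replicate 1 of 10 mM and 420 ppm 5 were called, beside 1.42%. Without ineffective Agate replicate 1 of 10 mM and 420 ppm 0 were called, beside 0.00398%. For Saranac minus Agate on leaving out, 7 to 16 were called in ineffective plants, beside 14.1% to 22.2% of all genes. In effective plants 0 to 2 were called, beside 0.368% to 2.62%. There 0 were called without a filter, beside 1.19%, and 6 by the Wald test, beside 4.79%. For cultivar by fixation, 1 to 6 were called on leaving out, beside 3.58% to 9.56% of all genes, and 1 without a filter, beside 4.32%. Without the library numbered out of order 4 were called, beside 7.77%, and by the Wald test 9, beside 12.8%. For ineffective minus effective plants, 44 to 62 were called on leaving out, beside 11.6% to 22.9% of all genes, and 63 by the Wald test, beside 26.5%. The cause of these moves was not tested. With the replicate number as a block, 0 members were called for the CO2 response at 6 against 16 mM, 4 at 6 against 10 mM and 4 for cultivar by fixation. The shares of all genes were then 0%, 1.44% and 8.31%. The numbers did not pair the libraries: deviations of same-numbered libraries had a median correlation of -0.0010, against 0.00099 for other numbers, and 13 of 85 libraries correlated best with their own number. For MsG0780039352.01 and MsG0280009636.01 some fits without a replicate number or library gave no usable error. The omissions of 5 single libraries that stood apart were chosen after seeing the data. Levels under about 1 CPM rest on few counts, so differences among the lowest libraries were not detectable at this depth.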

Other observations

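The library whose labels contradict each other on fixation class, of Agate at 10 mM and 420 ppm, had a median member level of 3.38 on the log2(CPM + 1) scale. Ineffective Agate at 10 mM had 5.52 to 6.26 at 600 ppm (n = 4) and 2.64 to 3.99 at 420 ppm (n = 3), and effective Agate at 10 mM had 3.53 to 3.72 at 600 ppm (n = 4) and 3.06 to 4.27 at 420 ppm (n = 3). Its level lay within the range of either fixation class at 420 ppm.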
